A study of Mus musculus with 26 samples.

Results

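Motor neuron spheroids were given either a mechanical or a biochemical stimulus, and the difference between the responses to these stimuli is described here gene by gene. The quantity is an interaction, the actuation effect (actuated minus static array) minus the high-intensity effect (high intensity minus biochemical control), each as a log2 fold change. A value above 0 means that a gene stood higher after actuation than after the high-intensity treatment, each relative to its own control. The samples were taken by their group labels after setting aside libraries with fewer than 1000000 counts in protein-coding genes, which left 16 of the 26 samples.

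All 4 groups were spheroids of HBG3, derived from mouse embryonic stem cells, in which GFP reports the promoter activity of HB9 (Mnx1), a homeobox transcription factor of motor neurons. The labels give the genotype as heterozygous blastocysts and the tissue as nervous. All spheroids were differentiated with retinoic acid and purmorphamine (spelled puromorphamine in the labels), received CNTF and GDNF on day 5 and were seeded on fibrin at about day 8. The actuated group, labelled "Mechanical stimulation" (n = 4), sat on a magnetically driven silicone array that moved for 30 min a day at 4 Hz. The static group, labelled "Mechanical control" (3 of 4 samples used, replicate 3 set aside), sat on the same array without movement. The treatment labelled "High intensity biochem" (4 of 6 used, replicates 4 and 5 set aside) was compared with "Biochemical control" (5 of 6 used, replicate 4 set aside). The design text describes medium taken from exercised or resting muscle cells, but nothing in the labels ties its sample names to high or low intensity. That this group received muscle-conditioned medium is an assumption. The labels do not state whether replicates were separate cultures, and p-values then measure only the spread between these samples.

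Motor neurons respond to contracting muscle through secreted factors and through force on their processes and on the surrounding matrix. Force reaches the nucleus through integrins and the actin cytoskeleton, where the transcription factors SRF and YAP/TAZ-TEAD act on genes of actin, focal adhesions and matrix. Glycolysis and oxygen-sensing genes share a regulator, the hypoxia-inducible factor HIF, whose core DNA element is a short E-box-like sequence.

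Total counts were 7269276 to 9839951 in the actuated group, 7724923 to 13162635 in the static group, 2408099 to 3971348 at high intensity and 2273487 to 3771637 in the biochemical controls. The limit that a count of 0 allows (3 counts in 1 library) was 0.305 to 0.413, 0.228 to 0.388, 0.755 to 1.25 and 0.795 to 1.32 CPM (counts of a gene per 1000000 counts of its library) in these groups, for counting error only. Of the 56941 genes listed, 14492 had enough counts to be fitted. Of the libraries, 2 were taken to stand apart from their groups, a choice made after the data were seen. High-intensity replicate 3 held 263 CPM of Xist, the RNA that silences the X chromosome, against at most 5.10 CPM in the other 15 samples. In the low-intensity group, which is outside this comparison, replicates 1, 2 and 5 held 106, 40.9 and 136 CPM of Xist before normalisation. Static replicate 4 held 1026 CPM of fibroblast markers, against 377 and 305 in static replicates 1 and 2. Other libraries also lay at the edge of their group. Actuated replicate 3 held 207 CPM of these markers, against 532 to 781 in the rest of its group. Values without static replicate 4, high-intensity replicate 3 or both are given beside many of the results. The array and the medium samples were each tested against their own controls, and no level was tested between them.

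For no gene did the effects differ at an adjusted p under 0.05 (quasi-likelihood test of edgeR, adjusted over all genes by Benjamini-Hochberg, 0% called). The smallest adjusted p was 0.195, for Gm20605, a predicted gene that the table lists as protein-coding, at a mean of 2.51 CPM. At an unadjusted p under 0.05, 395 genes lay above 0 (2.73%) and 594 lay below 0 (4.1%), 989 in all, against 570 without static replicate 4 and 433 without both libraries that stand apart. DESeq2 called 3 genes, Gm20605, the pseudogene Ywhaq-ps3 and the small nuclear RNA gene Gm26244, while limma voom called 0. Gm26244 had counts only in static replicate 2 (705) and high-intensity replicates 2 (216) and 6 (333), and its TPM disagreed. TPM was 0 in high-intensity replicate 2 and 5705 in control replicate 3, where the count was 0. Actuation alone called no gene (0%), and 58 genes (0.4%) had an unadjusted p under 0.05, 26 higher and 32 lower, and DESeq2 called 5. At high intensity 50 genes rose (0.345%) and 18 fell (0.124%), and at an unadjusted p under 0.05 the shares were 8.78% higher and 6.85% lower. The number of calls, 68, depended on single libraries. It was 0 without high-intensity replicate 1 or 3, 19 without replicate 2 and 392 without replicate 6. Without control replicate 1, 3, 5 or 6 it was 19, 4, 11 or 106, and without an actuated replicate or static replicate 1 or 2 it was 15 to 45.

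The high-intensity effect was the wider one. Its SD over genes was 0.72 (log2) against 0.44 for actuation, and the median absolute effect was 0.26 against 0.12. Among the 3623 genes of lowest mean CPM the SDs were 1.17 and 0.72, and among the 3623 of highest mean CPM 0.28 and 0.12. The high-intensity and control libraries were shallower than those of the array, and the part of depth in this width was not tested. Across the 14492 genes, which are not independent replicates, the effects had a Pearson r of -0.06 and a Spearman rho of -0.02, and 48.5% of genes had the same sign in both. The effects share no sample. The 50 genes that rose at high intensity stood above 0 on the array for 24 and below 0 for 26, with a median of -0.02 (range -1.26 to 0.51) and none at p under 0.05. The 18 that fell stood above 0 for 10 and below 0 for 8, with a median of 0.00. Over all genes fitted, 49.8% lay above 0 on the array.

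**Figure D1:**
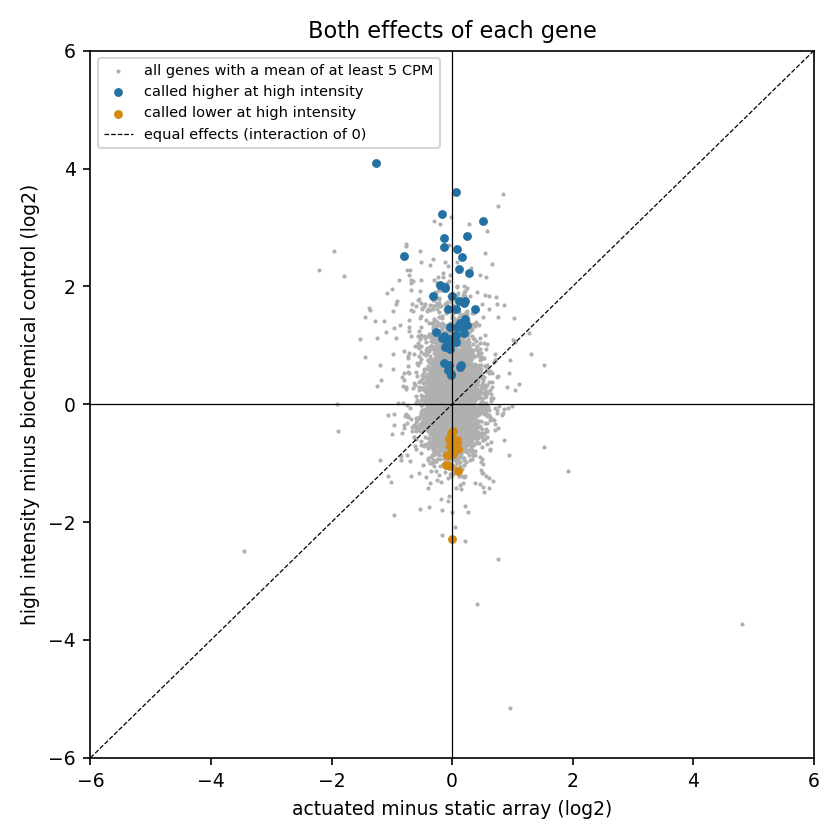
Each point is a gene with a mean of at least 5 CPM (11767 genes, of which 10 lie outside the axes), with its actuated minus static log2 difference on the x axis and its high intensity minus control log2 difference on the y axis. Coloured points are genes called at high intensity (64 plotted); they spread along the y axis and stay near 0 on the x axis, away from the dashed line of equal effects.

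How closely a difference could be bounded varied with the level of a gene. The 95% interval of the interaction lay within 1 log2 unit of 0 for 6298 of the 14492 genes (43.5%). Ordered by mean CPM into 4 equal parts, this held for 5, 501, 2446 and 3346 of 3623 genes each, and the median SE was 1.09, 0.49, 0.30 and 0.21. A 2-fold difference between the effects was therefore not bounded for most genes of the lower levels. The sign also followed the level. The interaction lay above 0 for 1395, 1528, 1791 and 2301 genes of these parts, with medians of -0.27, -0.10, -0.01 and 0.09.

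Most listed genes of matrix, actin and calcium-dependent membrane binding lay below 0. Over all genes 7477 of 14492 lay below 0, and 594 (4.1%) did so at p under 0.05. In the 2 parts of lowest mean CPM, 2228 and 2095 of 3623 genes lay below 0, 134 and 184 of them at p under 0.05. Sample values are given in CPM in 1 order throughout, actuated replicates 1 to 4, static replicates 1, 2 and 4, high-intensity replicates 1, 2, 3 and 6, and control replicates 1, 2, 3, 5 and 6. Anxa3, an annexin that binds phospholipid in the presence of calcium, read 2.09, 7.81, 1.54 and 5.48 on the actuated array and 4.95, 3.41 and 22.7 on the static one. With high intensity it read 29.1, 22.8, 60.5 and 7.70, and in the controls 0.286, 1.04, 0, 1.85 and 5.17. All high-intensity samples were above all controls, as held for 2.13% of all genes, whereas actuated and static samples overlapped and static replicate 4 was the highest of the array. Anxa3 rose at high intensity by 4.09 (log2, SE 0.80, adjusted p = 0.0394), its actuation effect was -1.26 (SE 0.76), and the interaction was -5.36 (95% interval -7.67 to -3.04, adjusted p = 0.496), or -3.47 without both libraries that stand apart.

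Plau, the urokinase-type plasminogen activator that starts pericellular proteolysis, read 3.26, 5.27, 1.32 and 4.26 on the actuated array, 5.51, 2.89 and 10.2 on the static array, 17.7, 20.7, 19.5 and 5.22 at high intensity and 3.71, 2.09, 1.52, 2.32 and 3.73 in the controls. The array groups overlapped, and the high-intensity samples did not overlap their controls. The log2 effects were -0.80 (SE 0.54) for actuation and 2.52 (SE 0.52, adjusted p = 0.0401) for high intensity, an interaction of -3.32 (95% interval -4.88 to -1.75, adjusted p = 0.524). The adjusted p of the interaction was also 0.524 for Sparc, Nid1, Flna, Smtn, Cnn1, Tead1, Mki67, Bub1b and H2ac10, because the adjustment levels nearby ranks.

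Sparc, a matrix glycoprotein that binds collagen, read 224, 274, 199 and 248 (actuated), 208, 210 and 350 (static), 500, 428, 411 and 286 (high intensity) and 236, 217, 199, 177 and 210 (control). Static replicate 4 was the highest sample of the array, and the high-intensity samples did not overlap their controls. The interaction was -1.08 (95% interval -1.60 to -0.57), from -0.12 (SE 0.19) and 0.97 (SE 0.16, adjusted p = 0.0199). Nid1, the basement membrane linker nidogen, read 48.9, 73.6, 21.3 and 38.3, then 45.8, 23.2 and 103, then 210, 215, 362 and 130, then 65.7, 78.7, 61.4, 54.2 and 59.1. Every high-intensity sample of Nid1 was above every control, and the array groups overlapped. Its interaction was -2.16 (95% interval -3.27 to -1.05), or -1.43 without static replicate 4.

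Among 17 collagens fitted, 8 had an interaction below 0 at p under 0.05 (4.1% over all genes) and none above 0. Their median effects were -0.08 on the array and 1.02 at high intensity, a median interaction of -0.94 beside -0.02 over all genes. None of the 17 was called at high intensity. Col1a1, the main fibrillar collagen chain of connective tissue, read 148, 249, 14.5 and 122, then 97.1, 50.0 and 402, then 990, 1057, 340 and 382, then 205, 421, 119, 183 and 142. Replicates of Col1a1 ranged widely in all groups, and 1 control lay above high-intensity replicates 3 and 6. Its interaction was -2.14 (95% interval -4.01 to -0.28, adjusted p = 0.698) and -0.82 without static replicate 4. The median of the collagens was -0.43 without that library, with none of 17 at p under 0.05, and their median actuation effect was then 0.59.

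In the list of actin and SRF-target genes, 22 were fitted, 21 lay below 0, and 13 had p under 0.05, all below 0 (4.1% over all genes). The median effects were -0.27 on the array and 0.68 at high intensity. Flna, the actin crosslinker filamin A and the only member called at high intensity, read 175, 260, 160 and 207, then 201, 145 and 382, then 575, 413, 689 and 252, then 216, 247, 202, 188 and 179. High-intensity replicate 6 of Flna was close to the highest control, and static replicate 4 was the highest of the array. Flna rose by 1.22 at high intensity (SE 0.26, adjusted p = 0.0413), was at -0.27 (SE 0.29) on the array and had an interaction of -1.49 (95% interval -2.29 to -0.70), or -1.01 without static replicate 4 and -0.78 without both libraries that stand apart.

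Smtn and Tln1 are not members of the actin and SRF-target list. Smtn, a smooth-muscle actin-binding protein, read 12.6, 19.8, 11 and 14.4, then 11.5, 8.60 and 20.1, then 40.0, 20.7, 39.0 and 16.2, then 4.28, 3.48, 7.24, 9.27 and 5.74. Its high-intensity samples were all above the controls, and its interaction was -2.18 (95% interval -3.24 to -1.11), from 0.12 (SE 0.37) and 2.29 (SE 0.36, adjusted p = 0.0183). Cnn1, the contractile protein calponin, read 3.39, 10.9, 2.30 and 6.94, then 8.77, 3.86 and 36.4, then 53.4, 52.4, 19.1 and 10.7, then 10.9, 13.6, 9.15, 16.7 and 10.9. Static replicate 4 alone held more than the actuated samples, and high-intensity replicate 6 lay among the controls. The interaction of Cnn1 was -2.92 (95% interval -4.67 to -1.17) and -1.55 without static replicate 4. Tln1, the talin that ties integrins to actin, rose at high intensity by 1.06 (SE 0.24, adjusted p = 0.0484), with an actuation effect of -0.09 (SE 0.26) and an interaction of -1.15 (95% interval -1.88 to -0.41, adjusted p = 0.535), or -0.60 without both libraries that stand apart. Leaving out static replicate 4 moved the median of the actin and SRF-target list from -0.94 to -0.59, its count at p under 0.05 to 6, and its median actuation effect to 0.09.

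Tead1, the DNA-binding partner of YAP and TAZ, read 53.2, 69.9, 51.5 and 55.5, then 59.6, 39.3 and 73.8, then 125, 103, 100.3 and 81.9, then 57.4, 33.8, 46.5, 45.4 and 52.8. It rose at high intensity by 1.12 (SE 0.19, adjusted p = 0.0183) with no overlap, its actuation effect was 0.00 (SE 0.20), and the interaction was -1.11 (95% interval -1.69 to -0.54). Of 19 fitted targets of YAP/TAZ, 7 had an interaction below 0 at p under 0.05 and none above, with a median of -0.52. That median was -0.27 with 2 genes at p under 0.05 when static replicate 4 was left out, and -0.09 with 2 without both libraries. Among 22 adhesion genes, 5 lay below 0 at p under 0.05 and none above, with a median of -0.26. Over all genes 4.1% lay below 0 at that p. Without static replicate 4 the count of adhesion genes was 2 and without both libraries 0, with a median of -0.25.

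**Figure D2:**
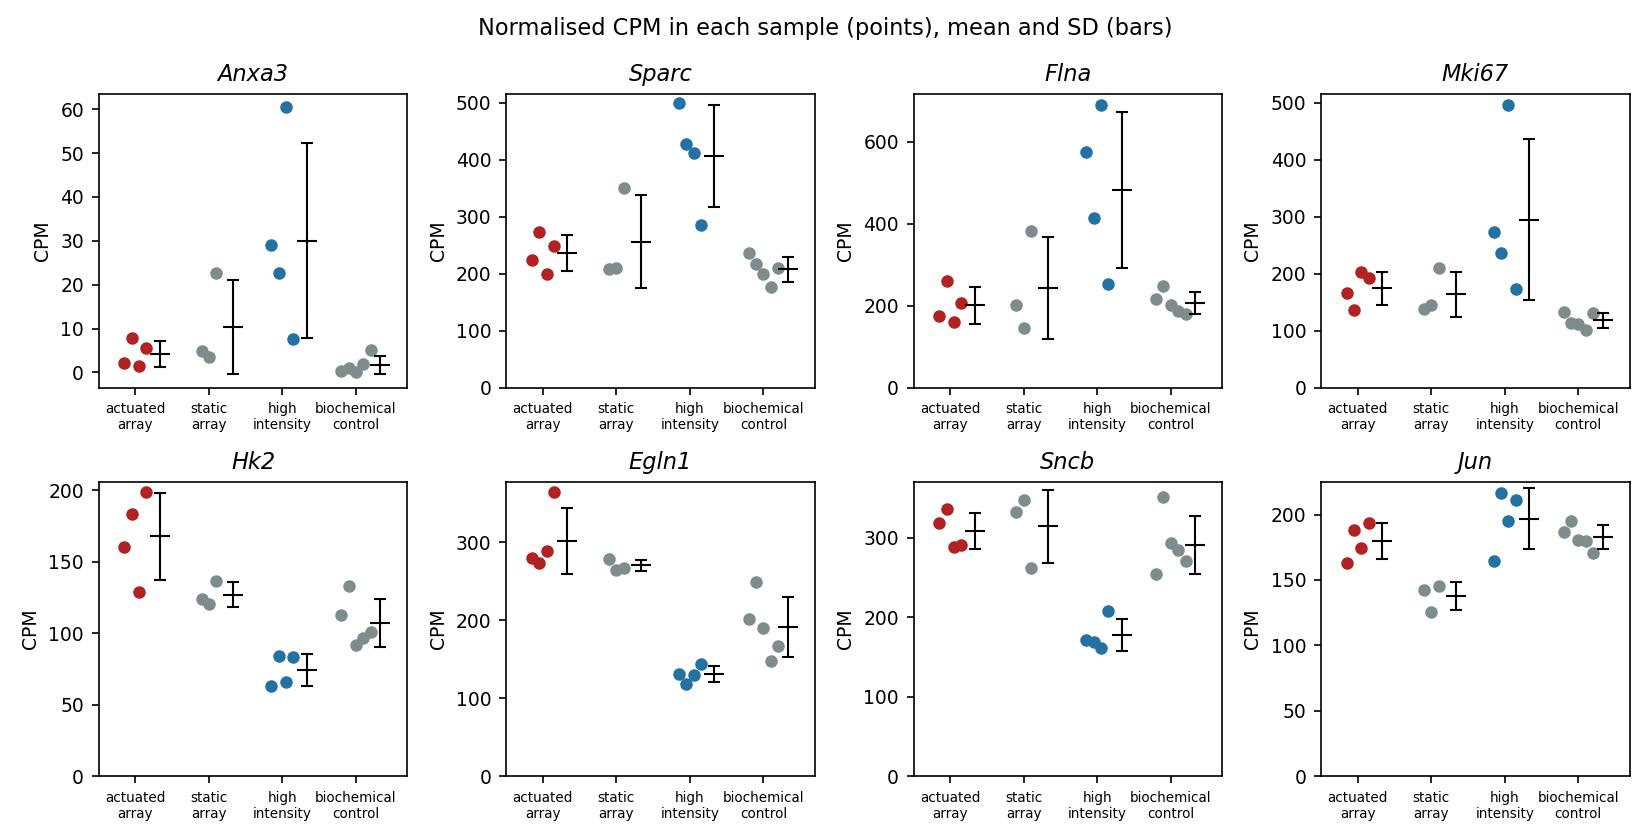
Normalised CPM of 8 genes on the y axis in each sample (points), by group, with the mean and SD beside the points. High-intensity samples of Anxa3, Sparc, Flna and Mki67 lie above their controls and those of Hk2, Egln1 and Sncb below, while Jun separates the actuated from the static samples.

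Fibroblast and mesenchyme markers mostly lay below 0 with these genes, and skeletal muscle markers were mixed. The summed level of 16 fibroblast and mesenchyme markers was 207 to 781 CPM (median 596) on the actuated array, 305 to 1026 (median 377) on the static array, 1123 to 2854 (median 1896) at high intensity and 457 to 1135 (median 556) in the controls, and S100a4 in the controls was the only one at 0. Of the 13 fitted markers, 5 had an interaction below 0 at p under 0.05 (4.1% over all genes) and none above, with a median of -1.18. Without static replicate 4 the median of the markers was -0.69 with 1 of 15 at p under 0.05, and without both libraries -0.80 with 0 of 14. The 20 skeletal muscle markers summed to 23.0 to 36.1, 11.6 to 120, 32.2 to 203 and 11.4 to 115 CPM in the same order. Myod1 and Myog, which define myoblasts, had 24 and 3 counts over the 16 samples. The numbers of muscle markers at 0 were 4, 4, 1 and 6 of 20, among them Myog on the actuated array and in the controls. The 7 neuron markers summed to 3327 to 3588, 3093 to 3558, 2340 to 3493 and 3379 to 3611 CPM, and none was at 0. Whether the number of non-neuronal cells had a part in the matrix and actin differences was not tested, and in bulk RNA more cells of a type and more RNA per cell cannot be told apart.

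**Figure D3:**
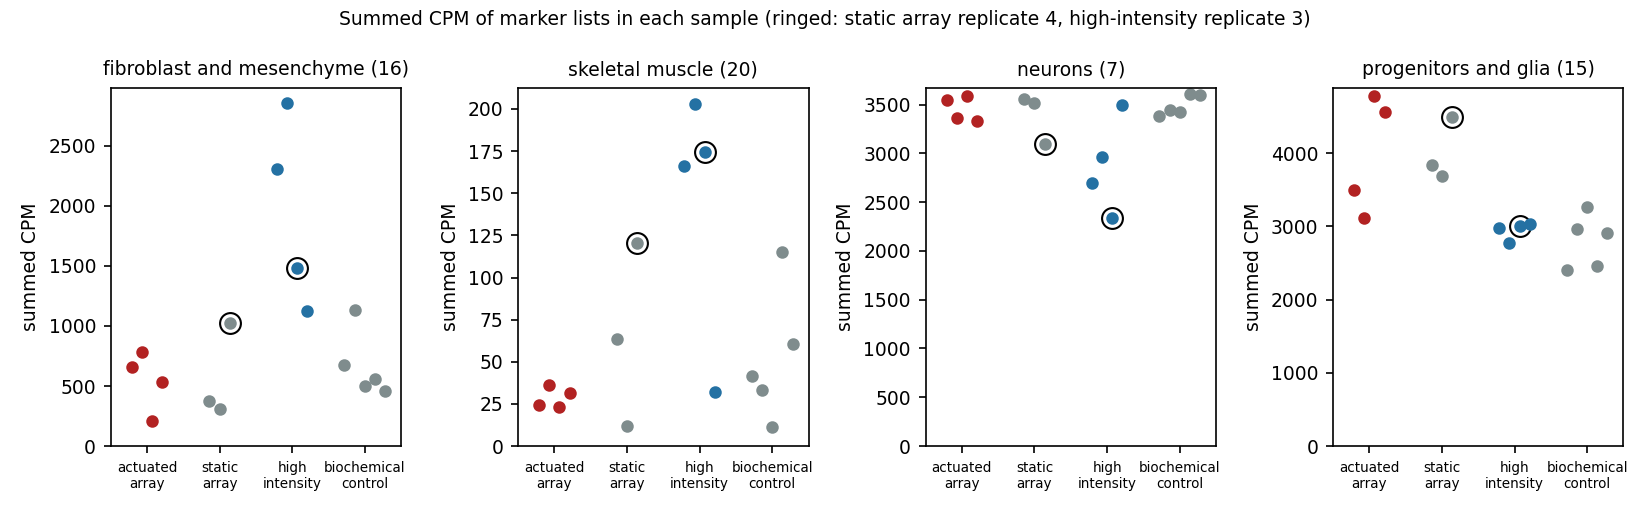
Summed CPM (y axis) of the marker lists of fibroblasts and mesenchyme, skeletal muscle, neurons, and progenitors and glia, 1 point per sample, by group. Ringed points are static replicate 4 and high-intensity replicate 3; the fibroblast sum at high intensity (1123 to 2854) lies above 4 of 5 controls in every sample.

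Proliferation genes also lay below 0. Of 23 cell cycle genes fitted, 22 had an interaction below 0, and 13 had p under 0.05 (over all genes 7477 of 14492, and 4.1%). Their median effects were -0.05 on the array and 1.18 at high intensity, where Mki67, Top2a and Mcm2 were called. Mki67, a protein of proliferating nuclei, read 166, 136, 202 and 192, then 137, 145 and 209, then 274, 236, 496 and 173, then 132, 113, 112, 101 and 131. High-intensity replicate 3 of Mki67 was the highest of its group, and the other high-intensity samples were still above the controls. Mki67 rose by 1.32 (SE 0.22, adjusted p = 0.0183), with an actuation effect of 0.09 (SE 0.25) and an interaction of -1.23 (95% interval -1.91 to -0.55), or -0.64 without both libraries that stand apart.

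Bub1b, a kinase of the spindle checkpoint, read 13.9, 18, 32.8 and 26.9, then 16.3, 24.2 and 33.7, then 36.7, 18.7, 71.1 and 23.4, then 9.996, 8.70, 9.91, 8.80 and 9.19. The controls of Bub1b were tightly grouped and below every high-intensity sample. The interaction was -2.11 (95% interval -3.15 to -1.06) and -1.32 without both libraries. H2ac10, a replication-dependent histone H2A gene, read 3.52, 10.8, 14.7 and 17.4, then 6.41, 13.3 and 13.6, then 13.2, 9.75, 29.7 and 12.4, then 0, 4.18, 0.762, 0.463 and 1.15. H2ac10 rose at high intensity by 3.60 (SE 0.65, adjusted p = 0.0254), and the interaction was -3.54 (95% interval -5.38 to -1.70). Histone genes are near-identical copies and their values are uncertain where reads were divided among them. Of 23 histone genes fitted, 22 lay below 0 and 5 had p under 0.05, all below 0 (4.1% over all genes).

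The summed level of the cell cycle list was 684 to 918 CPM (actuated), 690 to 970 (static), 720 to 1793 (high intensity) and 483 to 622 (control). All high-intensity samples were above all controls, and 1793 was the value of replicate 3. Without replicate 3 the median interaction of the list was -0.76 with 6 genes at p under 0.05, and that of the histones was -0.23 with 2 below and 1 above. Without static replicate 4 the counts were 8 for the cell cycle and 2 for the histones. Without both libraries the medians were -0.64 with 3, and -0.12 with 1 below and 1 above. The joint list of progenitor and glia markers summed to 3120 to 4777, 3684 to 4495, 2770 to 3029 and 2406 to 3266 CPM, and high-intensity and control samples overlapped. The glial marker Gfap held 1507 to 1657 CPM of the high-intensity sums and 1207 to 1821 of the control sums. The progenitor marker Nes read 184, 223, 484 and 126 at high intensity and 123, 167, 115, 106 and 102 in the controls. Of the 15 members, 6 had an interaction above 0 and 9 below, 2 of these 9 at p under 0.05.

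Most genes of glycolysis and of the hypoxia response lay above 0. Of 21 glycolysis genes fitted, 20 had an interaction above 0 and 10 had p under 0.05, with none below at that p. In the part of highest mean CPM, 2301 of 3623 genes lay above 0, 214 of them at p under 0.05. The median effects were 0.05 on the array and -0.27 at high intensity. Hk2, a hexokinase that phosphorylates glucose, read 160, 183, 129 and 199, then 124, 120 and 137, then 63.3, 84.1, 65.8 and 83.6, then 113, 133, 91.9, 96.4 and 101. All high-intensity samples of Hk2 were below all controls, as held for 1.34% of all genes, and 3 of 4 actuated samples were above all static ones. Its actuation effect was 0.40 (SE 0.16, p under 0.05 before adjustment), its high-intensity effect -0.53 (SE 0.15, adjusted p = 0.0876) and its interaction 0.93 (95% interval 0.48 to 1.38, adjusted p = 0.524). Without both libraries that stand apart the interaction was 0.94. Of the 17 genes with p under 0.05 in both effects, Hk2 was the only one that stood higher on the actuated array and lower at high intensity.

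Egln1, the oxygen-sensing prolyl hydroxylase that marks HIF for destruction, read 280, 274, 289 and 365, then 278, 265 and 268, then 131, 118, 129 and 143, then 201, 249, 190, 148 and 167. Its high-intensity samples lay below the controls, and the array groups overlapped. The interaction was 0.71 (95% interval 0.30 to 1.13), from 0.16 (SE 0.15) and -0.55 (SE 0.13, adjusted p = 0.0629). Bnip3, a mitochondrial mitophagy receptor, read 318, 364, 347 and 381, then 314, 329 and 360, then 152, 225, 123 and 211, then 278, 314, 263, 256 and 268. Bnip3 fell at high intensity by 0.64 (log2, SE 0.14, adjusted p = 0.0484), was at 0.08 (SE 0.16) on the array and had an interaction of 0.71 (95% interval 0.27 to 1.15). Of 14 hypoxia-response genes fitted, 10 lay above 0 and 4 below. At p under 0.05, 3 lay above 0 and none below, with a median of 0.29, or 0.61 with 5 genes without static replicate 4. The glycolysis median was 0.33 with 7 genes without that library and 0.30 with 6 without both. The list sum of glycolysis was 7792 to 8960, 8136 to 8476, 5903 to 6829 and 7135 to 7892 CPM, so that the high-intensity samples lay below all controls and the array groups overlapped.

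The promoters of Hk2, Egln1 and Bnip3 are shown because these genes had values above 0 together and HIF binds elements in this class of genes. That of Cnn2, an actin-binding calponin of the list with values below 0 (interaction -1.35), is shown as an SRF target that holds the SRF element. Most listed genes with a promoter sequence did not hold it. The windows run from 250 bases before to 50 after the gene start on the gene's strand (RefSeq, build GRCm38.p6). Capitals mark matches to ACGTG or GCGTG on either strand in Hk2 (chr6:82774405-82774704, minus strand, 2 matches), Egln1 (chr8:124949205-124949504, minus, 2) and Bnip3 (chr7:138909457-138909756, minus, 5, of which some overlap), and the match to the CArG box, the SRF element, in Cnn2 (chr10:79988350-79988649, plus, 1). The Cnn2 window also holds GCGTG on the other strand, which is not marked there.
Hk2: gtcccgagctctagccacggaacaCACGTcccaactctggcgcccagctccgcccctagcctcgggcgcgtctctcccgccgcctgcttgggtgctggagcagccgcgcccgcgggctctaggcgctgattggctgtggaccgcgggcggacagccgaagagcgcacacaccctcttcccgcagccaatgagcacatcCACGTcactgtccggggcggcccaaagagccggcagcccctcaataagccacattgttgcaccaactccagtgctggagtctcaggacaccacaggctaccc
Egln1: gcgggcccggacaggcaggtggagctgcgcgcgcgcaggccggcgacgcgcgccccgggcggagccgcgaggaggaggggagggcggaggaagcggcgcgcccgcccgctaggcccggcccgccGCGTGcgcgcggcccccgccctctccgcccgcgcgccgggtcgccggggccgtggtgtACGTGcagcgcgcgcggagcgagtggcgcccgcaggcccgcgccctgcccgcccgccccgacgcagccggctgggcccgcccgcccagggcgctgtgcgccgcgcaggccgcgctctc
Bnip3: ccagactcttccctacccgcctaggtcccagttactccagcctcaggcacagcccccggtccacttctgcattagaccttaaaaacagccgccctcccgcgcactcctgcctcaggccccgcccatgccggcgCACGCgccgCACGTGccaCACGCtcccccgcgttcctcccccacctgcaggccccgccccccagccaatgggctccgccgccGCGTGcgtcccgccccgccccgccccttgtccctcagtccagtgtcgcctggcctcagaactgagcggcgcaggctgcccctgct
Cnn2: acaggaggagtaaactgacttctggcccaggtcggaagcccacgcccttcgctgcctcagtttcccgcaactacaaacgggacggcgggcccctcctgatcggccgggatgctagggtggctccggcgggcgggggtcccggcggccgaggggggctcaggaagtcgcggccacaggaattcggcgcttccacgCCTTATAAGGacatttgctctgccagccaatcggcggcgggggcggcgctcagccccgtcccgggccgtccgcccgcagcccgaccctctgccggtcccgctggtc

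Of the 20 glycolysis genes matched to a promoter, 17 (85.0%) held ACGTG or GCGTG, as did 14 of 14 hypoxia-response genes, 12 of 18 actin and SRF-target genes and 18 of 22 immediate early genes, beside 46.7% of all 27025 genes with a window. A CArG box stood in 5 of 18 actin and SRF-target genes (27.8%), in 1 of 20 glycolysis genes and in none of the 14 hypoxia-response genes, beside 1.81% of all genes. Cnn2 was among those 5, and Flna and Cnn1 were not. A match describes the letters of the window only.

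Synaptic, cytoskeletal and axon growth genes of neurons had small values above 0, and other neuronal lists were more mixed. Over all genes 7015 of 14492 lay above 0, and 2301 of 3623 in the part of highest mean CPM. Of 22 synaptic vesicle genes, 21 had an interaction above 0 and 5 had p under 0.05. Their median effect was -0.03 on the array and -0.31 at high intensity. All 13 genes of the neuronal cytoskeleton list (3 at p under 0.05) and all 18 of the axon growth list (none at p under 0.05) lay above 0, with medians of 0.31 and 0.26. Of 28 voltage-gated channel genes, 25 lay above 0 and 1 had p under 0.05. Of 27 axon guidance genes, 16 lay above 0 and 11 below, and of 10 interneuron markers 6 and 4. The counts of synaptic vesicle and cytoskeleton genes at p under 0.05 moved with single libraries. Without static replicate 4, or without high-intensity replicate 3, no synaptic vesicle gene lay above 0 at p under 0.05 and 1 lay below, and the neuronal cytoskeleton list held 0 or 1 such genes above 0. Without both libraries the medians were 0.11 for synaptic vesicle, 0.16 for neuronal cytoskeleton, 0.14 for axon growth and 0.11 for voltage-gated channel genes, with 19 of 22, 13 of 13, 16 of 18 and 20 of 28 above 0.

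Sncb, the presynaptic protein beta-synuclein, read 318, 336, 289 and 290, then 333, 348 and 262, then 172, 169, 161 and 207, then 254, 351, 293, 284 and 270. The high-intensity samples of Sncb formed a separate low group, and the array groups overlapped. Sncb fell at high intensity by 0.71 (log2, SE 0.12, adjusted p = 0.0183), was at -0.03 (SE 0.13) on the array and had an interaction of 0.68 (95% interval 0.31 to 1.05, adjusted p = 0.524). Cplx1, the complexin that gates vesicle fusion, read 453, 473, 400 and 425, then 488, 571 and 351, then 245, 304, 199 and 294, then 369, 443, 396, 375 and 391. Its high-intensity samples were below all controls, with an interaction of 0.50 (95% interval 0.07 to 0.92, adjusted p = 0.698), or 0.33 without static replicate 4 and 0.22 without both libraries.

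Mapt, the microtubule-associated protein tau, read 1106, 1133, 1046 and 1035, then 1139, 1092 and 948, then 684, 836, 699.9 and 918, then 940, 962, 1075, 1052 and 1013. High-intensity replicate 6 of Mapt was just below the lowest control. The interaction was 0.39 (95% interval 0.08 to 0.70), from 0.03 (SE 0.11) and -0.36 (SE 0.10, adjusted p = 0.0845), and it was -0.04 on log2(TPM + 1) without centring. Nefl, the light chain of neurofilament, had an interaction of 0.32 (95% interval -0.04 to 0.69), or 0.13 without both libraries, which turned to -0.15 on that scale with all 16 samples.

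The direction of these small values depended on the scale. On log2(TPM + 1) the median gene stood at an interaction of -0.42, because the high-intensity effect of the median gene was 0.53, and the 10 most abundant features took 53.6% of TPM in the controls, 40.1% at high intensity, 34.2% on the actuated array and 39.9% on the static one. On that scale the medians turned to -0.18 for glycolysis, -0.12 for synaptic vesicle, -0.09 for neuronal cytoskeleton and -0.18 for axon growth genes. With each sample centred on its median gene they were 0.28, 0.34, 0.37 and 0.28, while the actin and cell cycle medians kept their sign on both scales.

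Most mitochondrially encoded genes of oxidative phosphorylation lay above 0. Of 13 fitted, 10 lay above 0 and 3 below. At p under 0.05, 7 lay above 0 (2.73% over all genes) and none below, with medians of 0.21 on the array and -0.54 at high intensity. mt-Nd5, a complex I subunit, read 2212, 1814, 4168 and 2556, then 2065, 1914 and 2413, then 4165, 2515, 3414 and 1882, then 2979, 6083, 7064, 6079 and 3379. The controls of mt-Nd5 ranged over more than a 2-fold span and overlapped the high-intensity samples. Its interaction was 1.11 (95% interval 0.27 to 1.95, adjusted p = 0.650). The list summed to 13706 to 31026 CPM in the controls and 9118 to 18815 at high intensity. The share of mitochondrial RNA also follows the quality of the RNA and its part was not tested.

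**Figure D4:**
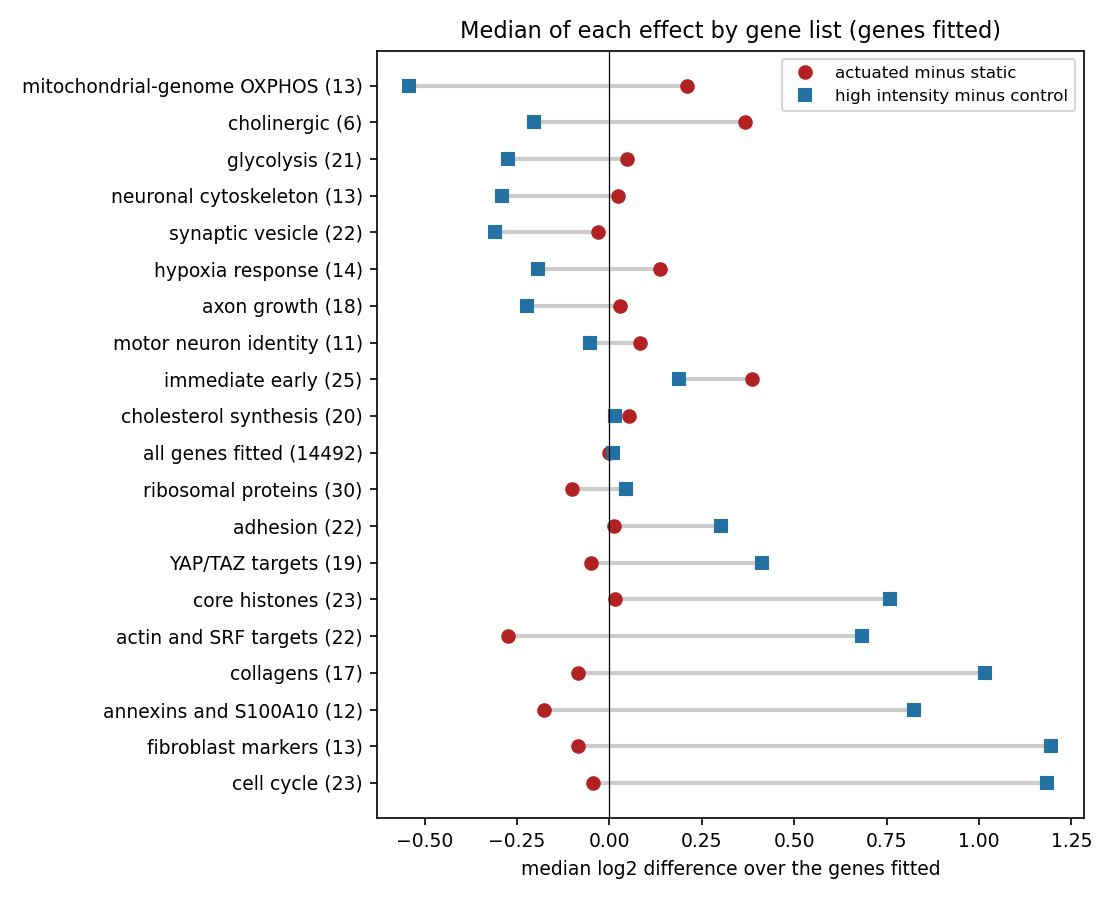
Median log2 difference (x axis) over the fitted genes of 19 lists and of all genes, with the number fitted in brackets. Circles are actuated minus static, squares are high intensity minus control, and the grey line between them is about the size of the interaction; the squares range from -0.54 for mitochondrial genes to above 1 for collagens, cell cycle genes and fibroblast markers, and the circles from -0.27 to 0.39.

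**Figure D5:**
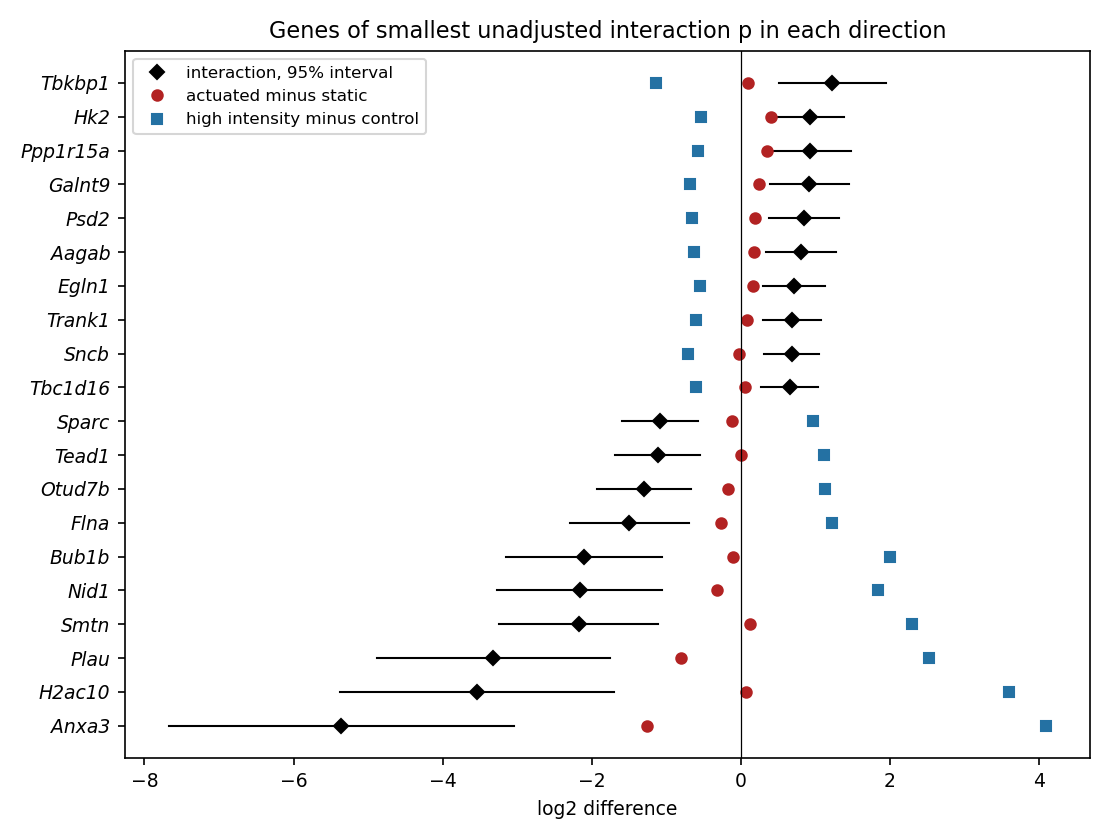
Log2 differences (x axis) of the 20 protein-coding genes of smallest unadjusted interaction p, 10 in each direction, chosen for that p. Diamonds with lines are the interaction with its 95% interval, circles actuated minus static and squares high intensity minus control; for most genes the square lies far from 0 and the circle close to it.

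Among the 20 protein-coding genes of smallest interaction p, those above 0 also held Tbc1d16, a Rab GTPase-activating protein, which read 89.4, 91.5, 106 and 104, then 97.7, 94.8 and 90.1, then 71.4, 54.9, 54.0 and 78.4, then 102, 101, 99.5, 91.3 and 100.2. Tbc1d16 fell at high intensity by 0.61 (log2, SE 0.12, adjusted p = 0.0401) with groups apart, and had an interaction of 0.66 (95% interval 0.28 to 1.04), but on log2(TPM + 1) its high-intensity effect was 0.01. Ppp1r15a, the stress-induced GADD34 subunit that reverses eIF2alpha phosphorylation, read 69.1, 92.8, 121 and 120, then 69.6, 63.5 and 103, then 40.0, 43.5, 33.3 and 44.5, then 65.1, 61.6, 55.6, 58.4 and 60.0. Its high-intensity samples lay below all controls, and the interaction was 0.93 (95% interval 0.39 to 1.47) from 0.36 (SE 0.19) and -0.58 (SE 0.18, adjusted p = 0.126). The genes below 0 also held Otud7b, a deubiquitinase, which rose at high intensity by 1.13 (SE 0.21, adjusted p = 0.0264) and had an interaction of -1.30 (95% interval -1.93 to -0.67).

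Motor neuron genes did not separate the effects at this spread. Mnx1, the gene whose promoter drives the reporter, read 9.12, 9.70, 11.5 and 7.18, then 6.75, 9.19 and 4.58, then 3.80, 17.9, 2.44 and 9.62, then 10.6, 10.8, 4.95, 6.49 and 8.61. All 4 groups overlapped, and the interaction of 0.44 had a 95% interval of -0.96 to 1.85, which includes a 2-fold difference in the positive direction, and without both libraries that stand apart it was -0.06. Of 11 motor neuron identity genes 8 lay above 0 and 3 below, none with p under 0.05 in either direction, with a median of 0.20, or 0.03 without both libraries. Of 6 cholinergic genes, 4 lay above 0, of which 2 at p under 0.05, or 1 when either of the libraries that stand apart was left out. Slc18a3, the vesicular acetylcholine transporter, read 80.4, 65.0, 57.8 and 77.3, then 48.7, 54.0 and 57.1, then 47.6, 45.5, 41.4 and 55.0, then 49.7, 46.7, 61.7, 77.4 and 56.3. All actuated samples of Slc18a3 were above all static samples, as held for 2.06% of all genes (2.22% had all actuated below all static), and high intensity overlapped control. Its interaction was 0.69 (95% interval 0.20 to 1.18, adjusted p = 0.613).

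Jun, an immediate early transcription factor of activity and injury responses, read 163, 188, 174 and 194, then 142, 126 and 145, then 165, 217, 195 and 211, then 186, 195, 181, 180 and 171. The actuated samples of Jun were above the static samples without overlap. The actuation effect was 0.39 (SE 0.12, p under 0.05 before adjustment), the high-intensity effect 0.11 (SE 0.10) and the interaction 0.28 (95% interval -0.05 to 0.60), which turned to -0.20 on log2(TPM + 1). Fos, its dimer partner, read 26.3, 29.4, 221 and 239 on the actuated array and 29.5, 35.1 and 163 on the static array, so that both array groups held low and high samples. Fos read 22, 20.7, 16.2 and 25.6 at high intensity and 7.14, 17.4, 13.7, 19.9 and 19.2 in the controls, and its interaction of 0.30 had a 95% interval of -1.59 to 2.18. Of 25 immediate early genes, none had p under 0.05 above 0 and 1 below, with a median of 0.16. Without static replicate 4 the counts of immediate early genes were 2 above and 0 below with a median of 0.44, and without both libraries 2 and 0 with a median of 0.54.

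Values with p under 0.05 in both effects were found for 17 of 14492 genes. At that p, actuation alone held 0.4% of all genes, and high intensity 8.78% higher and 6.85% lower. Whether 17 exceeds what these shares give together was not tested. The signs of the 17 were higher in both for 4, lower in both for 3, lower on the actuated array and higher at high intensity for 9, and the reverse for Hk2 alone. Zbtb20, a zinc finger transcription factor, was higher in both. It read 188, 184, 146 and 159, then 152, 133 and 141, then 272, 247, 252 and 253, then 215, 220, 193, 181 and 183, so that its high-intensity samples lay above the controls and the array groups overlapped. Its effects were 0.25 (SE 0.12) and 0.37 (SE 0.10, adjusted p = 0.0928), an interaction of -0.11 (95% interval -0.44 to 0.21) that changed sign to 0.11 with all 22 samples of the 4 groups. Des, the muscle intermediate filament desmin, was among the 9 with opposite signs and read 14.3, 24.3, 1.32 and 22.3, then 51.2, 5.71 and 106, then 150, 167, 106 and 14, then 9.71, 21.2, 8.39, 63.9 and 20.1. Samples of Des overlapped between both pairs of groups, and its effects were -1.79 (SE 0.82) and 2.19 (SE 0.76).

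Of the genes that are not protein-coding, Neat1, the RNA scaffold of paraspeckles, read 11.3, 5.84, 14.3 and 12.3, then 5.17, 7.56 and 15.0, then 246, 30.5, 192 and 47.3, then 9.14, 34.5, 14.5, 7.88 and 22.4. High-intensity replicate 2 of Neat1 lay among the controls and the others above them. Neat1 rose at high intensity by 2.86 (SE 0.52, adjusted p = 0.0254), was at 0.25 (SE 0.59) on the array and had an interaction of -2.61 (95% interval -4.24 to -0.98). The pseudogene Ywhaq-ps3 read 8.08, 13.2, 11.2 and 5.23, then 6.86, 10.1 and 5.82 on the array, 0 in all high-intensity samples and 14.9, 12.5, 0, 17.6 and 22.1 in the controls. One control also read 0, the adjusted p of the interaction was 0.304, and the values of pseudogenes are uncertain because the division of reads among near-identical copies is not given.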

How the data were processed

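Per the submitters' processing notes, the tools were STAR, Salmon, BWA 0.7.12-r1039 and bedtools 2.25.0, and the builds mm10, hg19 and GRCm39, with no role or order stated. The authors deposited a table of expected counts per gene, written as whole numbers and not scaled for depth, and a table of TPM values per gene. Whether counting used the strand, and how reads of near-identical genes were divided, is not given in the sources used here. Input was 4 ng of RNA, except for 8 unnamed samples of lowest concentration that entered at full volume. The tables disagreed in 437 cells with a count of 0 beside a TPM above 0 and in 317 with a count above 0 beside a TPM of 0.

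Counts were fitted with edgeR 4.0.16 (R 4.3.3): the 16 samples in 1 model with 1 coefficient per group, filterByExpr, TMM scaling, the quasi-likelihood F-test and Benjamini-Hochberg adjustment over all 14492 genes at 0.05. The actuation, high-intensity and interaction effects come from this fit, SE from the fold change and F statistic, and 95% intervals from the t quantile of the fit's degrees of freedom. CPM are TMM-normalised. Lists were described by counts and medians only. No 2 samples agreed within sampling noise.

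Named genes were the 10 protein-coding genes with a mean of at least 5 CPM of smallest interaction p in each direction, 3 of other biotypes in each direction, the members of smallest p and of highest mean TPM in each list used, the 3 with the largest smaller effect in each sign combination of both effects, genes named in earlier results of these data, and Mnx1; further list members and Xist were chosen after their values were seen. The members and lists were chosen with earlier results of these data known. Promoter windows are from RefSeq (GRCm38.p6). Alternatives used DESeq2 1.42.0 and limma 3.58.1, the latter also on log2(TPM + 1) and log2(TPM + 0.1). The procedure was tested on simulated data.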

Additional observations from a re-analysis of the deposited data

Results flagged for a closer look

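Dixon's test was run in the groups of 4 or 5 samples, and not in the static group of 3. In 9 of 144 groups of values tested (6.25%) a sample lay far from the rest; chance marks about 1 in 20. For genes of the text, these were H2ac10 in control replicate 2 (4.18 CPM, the others 0 to 1.15), Tbc1d16 in control replicate 5 (91.3, the others 99.5 to 102), Egln1 in actuated replicate 4 (365, the others 274 to 289), Des in control replicate 5 (63.9, the others 8.39 to 21.2), Tln1 in control replicate 2 (141, the others 84.6 to 97.1) and Col1a1 in control replicate 2 (421, the others 119 to 205). Xist was far from its group in high-intensity replicate 3 (263, the others 0 to 4.47) and in control replicate 5 (5.10, the others 0 to 0.287). The summed endoderm markers were high in actuated replicate 2 (115 CPM, the others 37.3 to 42.5). No cause was tested.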

How the results depend on the processing

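The number of genes called for the interaction was 0 in the reported fit and 223 without the low-count filter, 3 with DESeq2 and 0 to 1 when each sample was left out in turn. Actuation called 42 genes without the filter, 5 with DESeq2 and 0 with each sample left out. The 68 high-intensity calls became 685 without the filter, 494 with DESeq2, 0 with limma voom, 0 with all 22 samples of the 4 groups, 6 with all 26, 1911 on log2(TPM + 1), 1714 on log2(TPM + 0.1), 2 on centred log2(TPM + 1), 343 at an adjusted p under 0.10, 0 at under 0.01, 5 without static replicate 4 and high-intensity replicate 3 (chosen after seeing the data, as was the centring), and 0 to 392 with each sample left out. Pearson r of the effects was -0.263 with 22 samples, -0.322 with 26, 0.0733 without those 2 and -0.101 to 0.0667 with each left out. The causes were not tested.

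Deviations of same-numbered samples correlated from -0.14 to 0.25 on the array and from -0.08 to 0.03 for the medium. The same-numbered sample was the closest partner for array replicates 1 (0.22) and 4 (0.25) and for medium replicate 6. It was not for array replicate 2 or medium replicates 1, 2 and 3. The reported fit did not pair samples by replicate number. With a replicate block the interaction called 1 gene (Gm26244, whose counts and TPM disagree) and high intensity 2.

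Signs of single genes turned on log2(TPM + 1) and log2(TPM + 0.1) for the interactions of Mapt (-0.0404, -0.0407), Elavl3 (-0.0670, -0.0683), Gapdh (-0.16, -0.16), Nefl (-0.15, -0.15), Jun (-0.20, -0.20), Cyp51 (-0.27, -0.27), Prkdc (-0.40, -0.51) and Col4a5 (-0.38, -0.42), and for Tbc1d16 at high intensity (0.0118, 0.00877). They turned with 22 and 26 samples for Mir6236 (1.38, 1.30) and Zbtb20 (0.105, 0.0944), with centring for Nr4a3 (0.26), and without the 2 libraries for Mnx1 (-0.0567). With each sample left out, the interaction of Prkdc was between -9.85e-05 and 0.195 and that of Col4a5 between -0.0704 and 0.223. Depth limits the medium groups more than the array groups.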

Other observations

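Of 30 ribosomal protein genes, 23 had an interaction below 0 and 7 above, none with p under 0.05, and the median was -0.18 from -0.10 on the array and 0.05 at high intensity. The 20 cholesterol synthesis genes had a median of 0.06 with none at p under 0.05. Of 21 neurotrophic receptor genes, which receive survival signals of muscle and glia, 17 lay above 0, 2 of them at p under 0.05, and 1 lay below at that p, with a median of 0.17. The 13 mechanically gated channel genes, which open under membrane tension, had a median of -0.04 and none at p under 0.05. Of 20 Hox genes, which set the position of motor neurons along the cord, 13 lay below 0, 1 of them at p under 0.05, with a median of -0.12. Without both libraries that stand apart, the medians were 0.00 for ribosomal protein, 0.17 for cholesterol synthesis, 0.12 for neurotrophic receptor, 0.12 for mechanically gated channel and -0.01 for Hox genes.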
